A study of Mus musculus with 60 samples.

Results

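GFP-high epithelial cells of the mouse colon were compared with GFP-high epithelial cells of the small intestine, over all genes of the deposited count table. The cells came from mice with an Lgr5-2A-eGFP allele, 8 weeks old, in which GFP reports transcription of Lgr5, the R-spondin receptor that marks stem cells at the base of the crypt. The members are the 8 GFP-high libraries of the colon (4 each of its proximal and distal parts) and the 12 GFP-high libraries of the small intestine (4 each of its proximal, middle and distal parts, equal in length), 20 of the 60 libraries of the series, and each organ was taken as the mean of its part means. GFP-negative cells sorted from the same 5 parts, again 4 libraries each, were used where the organ difference in GFP-high cells was set against the same difference in the GFP-negative fraction. All animals carry the reporter allele and none is described as treated. Crypts were released by chelation and digested with TrypLE, each sorted fraction held 30000 cells or more from colon and 50000 or more from small intestine, and polyA RNA was sequenced. The labels do not say whether the 4 libraries of a group come from different animals, so p-values measure the spread between these libraries, which may be partly technical. The series is titled for Nox1 and Npy1r as marks of regional colon stem cells, and the organ comparison shows how those genes and the rest of the stem cell fraction differ along the gut.

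Crypt base stem cells renew the lining of both organs under Wnt and R-spondin signals and give rise to absorptive and secretory lineages. In the small intestine they sit between Paneth cells, which secrete lysozyme and alpha-defensins and supply Wnt3 and Notch ligands. The colon has no Paneth cells in the healthy mouse, and goblet-like deep crypt secretory cells marked by Reg4 and Kit take that position. Small intestinal identity depends on factors such as GATA4, while posterior Hox genes record position along the body axis.

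The GFP-high libraries held 71575254 to 113917959 counts in the colon and 58485489 to 101810833 in the small intestine, and levels below are in CPM, the usual depth-scaled count, on TMM-scaled library sizes. Lgr5 averaged 431 CPM in the small intestinal and 234 CPM in the colonic GFP-high cells, and 2.902 and 9.33 CPM in the GFP-negative cells, which matches the labels of the sort in both organs. The summed level of 10 epithelial markers ran from 8663 to 10237 CPM in the small intestine and from 8422 to 11175 CPM in the colon. Summed over 25 leukocyte markers, which include Lyz2, also in the Paneth cell list, the range was 30.7 to 63.3 and 9.65 to 25.5 CPM. The markers in the stromal and endothelial list summed to 7.68 to 17.3 and 15.04 to 29.6 CPM. Cells were sorted in bulk, so fewer cells of a type and less RNA per cell cannot be told apart.

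The libraries numbered 1 go against the rest in sex-linked genes. The 3 small intestinal GFP-high libraries with that number had no count of the Y-linked gene Ddx3y and 988 to 2111 CPM of Xist, the 2 colonic ones had both (Ddx3y at 40.1 and 46.1 CPM, Xist at 376 and 487 CPM), and the other 15 had Ddx3y at 47.7 to 64.1 CPM and Xist below 2 CPM. With all libraries numbered 1 left out, 8353 genes were called, 8098 of them also called in the same direction with all libraries.

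Of 23360 genes tested, 9847 (42.2%) differed between the organs at an adjusted p below 0.05 in edgeR's quasi-likelihood test with Benjamini-Hochberg adjustment, and each adjusted p below comes from that test. Of these 4878 (20.9%) were higher and 4969 (21.3%) were lower in the colon. Differences are given as log2 colon minus small intestine with the standard error, and the median over all genes tested was -0.04. In 1812 genes the colon was higher, and in 1201 lower, by at least 4-fold. For 1383 called genes (5.92%) every colonic library lay above every small intestinal library, and for 941 (4.03%) every one lay below, 2324 (9.95%) in all. Among the 1383, the distal colon had the higher mean of the colonic parts in 843 and the proximal colon in 540, and the distal part was the small intestinal part nearest the colon in 890. Among the 941 the proximal colon was higher in 518 and the distal colon in 375, and the distal small intestine was nearest in 467. A call alone is therefore common in this comparison, and the counts of members below are to be read against these shares.

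Regional transcription factors of the small intestine were lower in colonic GFP-high cells. Of 14 such factors 12 were lower, none was higher, and in 7 the libraries did not overlap (list median -3.36). Gata4, which specifies jejunal against ileal identity, had 8.16, 109 and 224 CPM as its lowest, median and highest small intestinal value and 0, 0.128 and 0.665 CPM in the colon (log2 -8.74 ± 0.42, adjusted p = 4.0e-24). Its small intestinal level fell from 205 ± 13.3 CPM (SD, n = 4) in the proximal to 23.6 ± 11.8 CPM in the distal part, and even that part lay above every colonic library. The related factor Gata5 was nearly level along the small intestine. It stood at 49.5, 65.5 and 85.99 CPM in the small intestine and 0, 0.302 and 1.41 CPM in the colon (log2 -7.58 ± 0.29, adjusted p = 2.9e-28). Gata6, another intestinal member of the family, was expressed in both organs, at 122, 138 and 160.2 and 80.96, 103 and 121 CPM, and differed by only -0.43 ± 0.08 (adjusted p = 2.0e-05). Onecut2 went from 184 CPM in the proximal to 2.13 CPM in the distal part and was at or under 0.413 CPM in all colonic libraries. Its fitted difference was -9.04 ± 0.54, and without proximal colon library 2 it was -12.00. Creb3l3, a regulator of lipid and apolipoprotein genes (log2 -6.198 ± 0.48, adjusted p = 3.8e-16), and Maf (log2 -5.05 ± 0.33, adjusted p = 6.3e-19) were lower without overlap as well. Hnf4a and Hnf4g, nuclear receptors that act in enterocytes of both organs, were lower by -0.95 ± 0.07 and -1.103 ± 0.14 and remained expressed in the colon, at medians of 602 and 41.2 CPM.

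Factors listed for the colon were split, with 3 of 9 higher and 4 lower. Foxd2, a forkhead factor, was close to absent from the small intestine at 0, 0.156 and 0.506 CPM, against 40.2, 56.6 and 97.8 CPM in the colon (log2 8.44 ± 0.42, adjusted p = 1.5e-23). The mineralocorticoid receptor gene Nr3c2 was 1.66 ± 0.09 higher without overlap (adjusted p = 1.2e-21). The caudal factors that set intestinal fate were nearly level: Cdx1 differed by 0.45 ± 0.15 (adjusted p = 0.0097), and Cdx2 by -0.30 ± 0.18 (adjusted p = 0.2), a difference that did not pass the test. The parts of the colon were far apart for Cdx2, at 284 CPM in the proximal and 95.4 CPM in the distal colon. Osr2 and Tbx3 were split in the same way: Osr2 had 63.8 CPM in the proximal colon, as in the middle and distal small intestine, and 0.1804 CPM in the distal colon, and Tbx3 had 29.5 and 0.404 CPM. Their organ differences (-3.65 ± 0.37 and -3.598 ± 0.36) thus rest on the distal colon, and Osr2's was -7.12 without distal colon library 3. Foxa1 and Foxa2, forkhead factors of gut secretory cells, were higher without overlap, by 1.55 ± 0.10 and 1.51 ± 0.15.

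**Figure D1:**
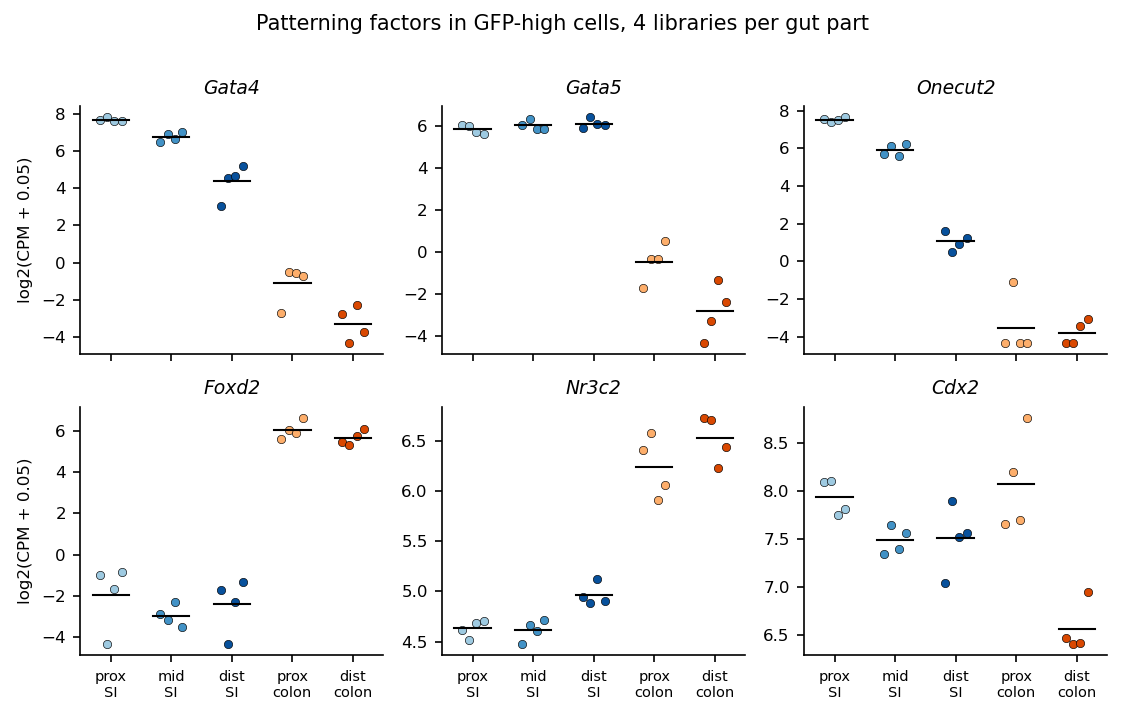
Each point is 1 GFP-high library, with its level on a log2 scale of CPM plus 0.05 on the vertical axis and the 5 gut parts in order on the horizontal axis (SI, small intestine), for transcription factors named in the text. Bars are means of the log values over 4 libraries. Gata4 falls along the small intestine and lies at or under 0.665 CPM in the colon, and Foxd2 lies at or under 0.506 CPM in the small intestine and at or above 40.2 CPM in every colonic library.

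Hox genes, whose order along each cluster follows the body axis, were higher in the colon in the clusters A, B and D. All 11 HoxA genes were higher (9 without overlap), as were 6 of 9 HoxB and 5 of 9 HoxD genes, and none was lower. Many of these genes have no or few counts in the small intestine, so list medians depend on how they are treated, and were 9.44 as fitted and 6.85 with such genes at the ratio or lower bound for HoxA. For HoxB the same pair was 2.91 and 2.50, and for HoxD 5.76 and 4.91. Without distal colon library 4, 3 HoxD genes were called in place of 5. Only 1 of the 9 HoxC genes passed the filter on low counts, and it was not called.

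The genes differed in the parts of the small intestine where they were detected. Hoxa3, an anterior gene, was present throughout, at 0.358, 0.96 and 4.16 CPM in the small intestine and 16.4, 24.1 and 30.1 CPM in the colon (log2 4.27 ± 0.29, adjusted p = 5.5e-18). Hoxa9 and Hoxa10 were detected almost solely in the proximal part of the small intestine, at 0.751 ± 0.376 and 0.548 ± 0.113 CPM, and reached 19.5, 50.9 and 76.4 and 18.02, 44.97 and 66.8 CPM in the colon. Hoxa13, which marks hindgut, had no count in any of the 12 small intestinal libraries and 8.19, 34.6 and 62.9 CPM in the colon, at least 434-fold higher against a floor of 6 counts per library. It was higher in the distal (57.2 ± 6.23 CPM) than in the proximal colon (12.2 ± 3.92 CPM), with no overlap between the 4 libraries of each.

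In the B cluster several genes were on in the distal small intestine as in the proximal colon, at lower levels. Hoxb9 had 30.1 ± 10.03 CPM (SD, n = 4) in the distal part, at most 0.0567 CPM in the other parts, 119.9 ± 9.11 CPM in the proximal and 76.8 ± 7.19 CPM in the distal colon. Colonic libraries all lay above the distal part, and the ratio of the organ means was 9.81. Hoxb6 and Hoxb8 were high in the distal small intestine (15.6 and 21.4 CPM) and the proximal colon (76.7 and 79.4 CPM) and low again in the distal colon (1.41 and 1.08 CPM), so that the organs overlapped. Hoxb13, the most posterior gene of the cluster, had no count in the small intestine, 6.01 ± 6.45 CPM in the proximal and 232 ± 41.1 CPM in the distal colon. Hoxd13 was also without counts in the small intestine and averaged 0.182 and 94.9 CPM in the proximal and distal colon.

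**Figure D2:**
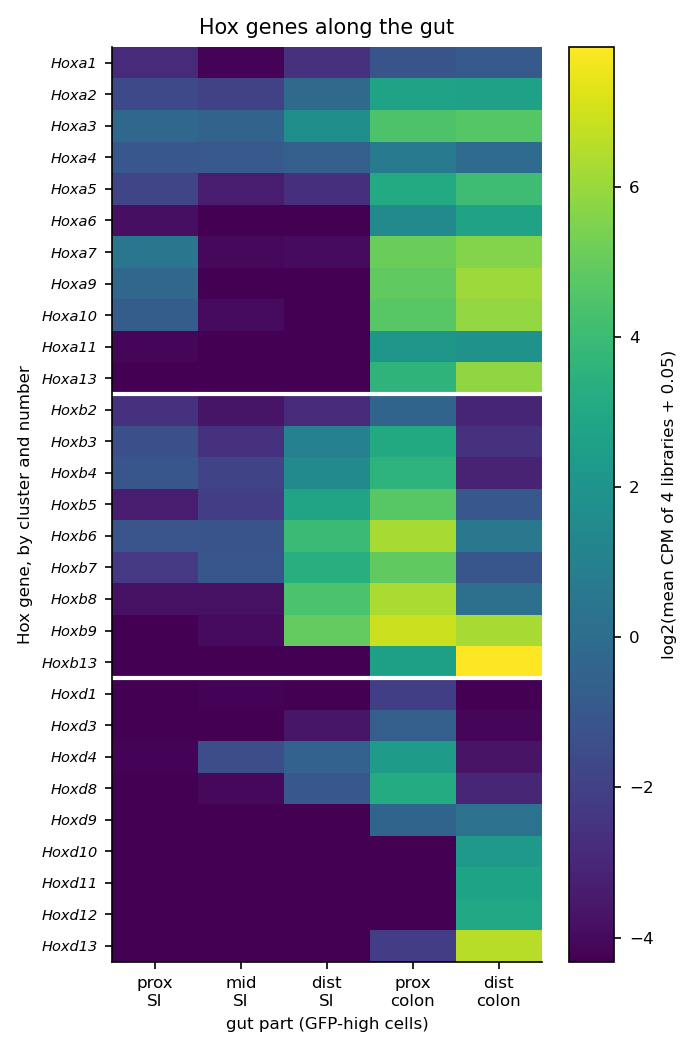
Mean level of each Hox gene in the 5 gut parts in GFP-high cells, coloured by log2 of CPM plus 0.05, with genes in rows from anterior to posterior within each cluster and gut parts in columns (SI, small intestine). Posterior HoxA genes are at or near 0 in the small intestine and on in both colonic parts. The middle HoxB genes are on in the distal small intestine and proximal colon and, Hoxb9 apart, low in the distal colon. Hoxb13 and Hoxd13 are highest in the distal colon.

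Genes of the small intestinal crypt base were mostly lower in colonic GFP-high cells, with exceptions in both directions. Of 33 listed genes 19 were lower and 7 higher (list median -0.55). Lgr5 itself had 280.2, 440.1 and 598 CPM in the small intestine and 145, 227 and 334 CPM in the colon (log2 -0.86 ± 0.17, adjusted p = 5.3e-05), and the organs overlapped. Lgr5 is the gene whose reporter set the gate. Olfm4, a secreted glycoprotein used as the stem cell marker of the small intestine, had 9881, 13315 and 15285 CPM there and was nearly absent from the colon at 0, 1.01 and 12.99 CPM (log2 -12.84 ± 0.82, adjusted p = 2.6e-19). The colonic parts overlapped, at 0 to 12.99 CPM in the proximal and 0 to 1.279 CPM in the distal part.

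Slc14a1, a urea transporter, had 66.9, 99.4 and 169.5 CPM in the small intestine and 0, 0.0404 and 0.204 CPM in the colon (log2 -10.81 ± 0.57, adjusted p = 1.0e-22), without overlap. Without distal colon library 3 its difference was -13.10. Gkn3, a gastrokine, had 2.68, 38.8 and 88.7 CPM in the small intestine, fell there from 70.5 CPM in the proximal to 5.39 CPM in the distal part, and was at or under 0.156 CPM in the colon. Also lower without overlap were Igfbp4, an IGF-binding protein (log2 -4.38 ± 0.30, adjusted p = 3.4e-18), the RNA-binding factor Msi1 (log2 -3.81 ± 0.25, adjusted p = 1.3e-18), the Wnt-induced receptor Tnfrsf19 (log2 -2.36 ± 0.18, adjusted p = 1.1e-16) and Cdca7, a MYC target (log2 -1.196 ± 0.08, adjusted p = 1.4e-17).

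Other markers changed by smaller steps, did not pass the test or were higher in the colon. Smoc2 was lower by a small step (log2 -0.67 ± 0.09, adjusted p = 8.5e-09). Ascl2, the master regulator of the Lgr5 stem cell state, differed by -0.44 ± 0.21 with adjusted p = 0.088. It passed with a replicate block (adjusted p = 0.029) and with only the GFP-high libraries fitted (log2 -0.42, adjusted p = 0.0097). The values for Sox9 (0.17 ± 0.13, adjusted p = 0.34) and Aqp4 (0.17 ± 0.14, adjusted p = 0.38) did not pass the test. The serotonin receptor gene Htr4 was higher without overlap (log2 1.75 ± 0.19, adjusted p = 7.2e-11), and Ephb3 (log2 0.68 ± 0.13, adjusted p = 1.2e-05), Fgfr4 (log2 0.68 ± 0.17, adjusted p = 6.8e-04), the ErbB regulator Lrig1 (log2 0.42 ± 0.09, adjusted p = 7.6e-05) and Phlda1 (log2 1.12 ± 0.15, adjusted p = 5.2e-09) were higher with overlap.

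R-spondin receptors and their ligases were mostly lower in the colon, and other Wnt components were split. The receptor Lgr4 (log2 -0.73 ± 0.09, adjusted p = 1.2e-09) and the ligase Rnf43, which removes Frizzled receptors (log2 -0.59 ± 0.13, adjusted p = 1.5e-04), were lower, while its relative Znrf3 did not pass the test (-0.17 ± 0.10, adjusted p = 0.18). In all, 4 of 5 genes of this set were lower and none was higher. The lower ones include Lgr5, whose reporter set the gate, and the sparse gene Lgr6. Lgr6 was at or under 1.35 CPM in the small intestine and at 0 in every colonic library. Axin2, a general Wnt target, had 284, 411 and 461 CPM in the small intestine and 127, 181 and 214 CPM in the colon (log2 -1.12 ± 0.16, adjusted p = 4.0e-08). Of 29 Wnt ligands, receptors and antagonists 10 were higher and 12 lower. Wnt3, the Paneth cell ligand, had 6.28, 14.1 and 26.1 and 0, 0.288 and 0.598 CPM (log2 -5.95 ± 0.38, adjusted p = 2.3e-19), and the antagonist Sfrp5 12.6, 70.7 and 188 and 0.561, 0.839 and 1.79 CPM (log2 -6.29 ± 0.37, adjusted p = 8.4e-21). Among Frizzled receptors Fzd5 was lower (-1.199 ± 0.10), and Fzd1 (1.29 ± 0.12) and Fzd8 (1.47 ± 0.14) were higher, each without overlap.

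Growth genes were modestly lower in the colon. All 20 genes of ribosome biogenesis were lower (list median -0.62, 8 without overlap), as was Myc, a known driver of such genes (log2 -0.63 ± 0.12, adjusted p = 1.1e-05). Of 38 cell cycle genes 23 were lower and 2 higher (list median -0.41), and without the libraries numbered 1 the lower genes were 18. Mki67, the proliferation marker, stood at 574, 801 and 995 CPM in the small intestine and 423, 604 and 1145 CPM in the colon and did not pass the test (-0.21 ± 0.18, adjusted p = 0.36). The 29 tested subunits of oxidative phosphorylation had 17 lower members and none higher, with a median of -0.24, and 9 lower members without the libraries numbered 1.

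The 20 protein-coding genes named for the largest fitted fall in the colon were 18 alpha-defensins, Lyz1 and Olfm4. All 19 alpha-defensins of the list, the antimicrobial peptides of Paneth granules, were lower in the colon without overlap. The count table also holds alpha-defensin genes outside this list. Summed, the listed genes took 4092 to 22461 CPM per small intestinal library and 0 to 1.25 CPM per colonic library. Defa38 had 443, 1555 and 3161 CPM in the small intestine and 0, 0 and 0.129 CPM in the colon. Defa20 had no count in any colonic library and 26.6, 209 and 789 CPM in the small intestine, at least 4897-fold more against the same floor. Members did not share 1 pattern along the small intestine: Defa21 and Defa22 rose from 137 and 108 CPM in the proximal to 2942 and 2648 CPM in the distal part, while Defa24 had its highest mean in the proximal part, with overlap (3672 against 2055 CPM). Alpha-defensin genes are near copies of each other and the treatment of reads that fit several genes is not given in the sources used here, so the split of counts among members is uncertain.

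Of 19 other Paneth cell genes 10 were lower and 7 higher. Lysozyme, Lyz1, had 3039.6, 7588 and 13838 CPM in the small intestine and 0.265, 0.781 and 1.95 CPM in the colon (log2 -13.09 ± 0.48, adjusted p = 4.0e-29). Intelectin-1, Itln1 (log2 -9.62 ± 0.57, adjusted p = 1.3e-20), and Mmp7, the protease that activates alpha-defensins (log2 -7.64 ± 0.35, adjusted p = 6.4e-25), were lower without overlap. Ang4, a granule ribonuclease, was lower with overlap (log2 -2.78 ± 0.55, adjusted p = 3.7e-05), since a colonic library reached 377 CPM. Nupr1, a stress-linked nuclear protein, was higher (log2 2.84 ± 0.21, adjusted p = 3.9e-17).

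The pentraxins Mptx1 and Mptx2 exchanged places between the organs. Mptx2, a Paneth cell product, had 151, 389 and 646 CPM in the small intestine and 0, 0.286 and 2.66 CPM in the colon (log2 -10.54 ± 0.48, adjusted p = 3.9e-25). Mptx1 had 0.5997, 0.967 and 3.32 CPM in the small intestine and 13.98, 774 and 4856 CPM in the colon (log2 8.46 ± 0.48, adjusted p = 4.0e-21; 7.86 without proximal colon library 4). Neither overlapped between organs. Mptx1 was far higher in the distal (3051 ± 1789 CPM) than in the proximal colon (67.9 ± 79.6 CPM), while Mptx2 was spread over the parts of the small intestine at 329 ± 59.4, 394 ± 203 and 485 ± 149.8 CPM.

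The 250 bases before the annotated start of both genes, which lie on chromosome 1, are shown because the genes are alike and their expression is opposite. They come from RefSeq's GRCm38.p6 annotation, read 5′ to 3′ on the gene's own strand, and capitals mark each TATAA, the letters of a TATA box. The window of Mptx1 is chr1:174330268-174330517 on the plus strand, and that of Mptx2 is chr1:173277757-173278006 on the minus strand.
Mptx1: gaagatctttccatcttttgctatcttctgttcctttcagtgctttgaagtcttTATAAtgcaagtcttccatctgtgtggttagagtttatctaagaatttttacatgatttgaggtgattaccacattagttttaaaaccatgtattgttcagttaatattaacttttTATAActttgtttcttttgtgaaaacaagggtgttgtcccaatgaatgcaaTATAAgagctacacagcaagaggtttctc
Mptx2: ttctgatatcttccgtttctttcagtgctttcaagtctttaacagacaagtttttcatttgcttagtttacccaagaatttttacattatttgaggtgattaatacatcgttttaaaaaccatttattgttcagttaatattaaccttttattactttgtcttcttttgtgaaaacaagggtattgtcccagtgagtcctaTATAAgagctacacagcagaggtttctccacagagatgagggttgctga
Aligned, the 2 windows were identical in 198 of 272 columns (72.8%), where columns with a gap count as not identical. TATAA occurs 3 times in Mptx1 and once in Mptx2, and the last copy starts 29 bases before the start of Mptx1 and 49 bases before that of Mptx2. The letters after this last copy are nearly the same in both windows, and the window of Mptx2 runs further past them. The 2 distances thus differ by where the starts are annotated, and the offset of the windows adds gaps to the alignment. The window of the alpha-defensin Defa21 (chr8:21025295-21025544 on the plus strand) is identical in all 250 bases to that of Defa22 (chr8:21162027-21162276 on the plus strand). The levels of both rose along the small intestine together, but the split of counts between such near copies is uncertain, so their levels are not separate observations.
Defa21: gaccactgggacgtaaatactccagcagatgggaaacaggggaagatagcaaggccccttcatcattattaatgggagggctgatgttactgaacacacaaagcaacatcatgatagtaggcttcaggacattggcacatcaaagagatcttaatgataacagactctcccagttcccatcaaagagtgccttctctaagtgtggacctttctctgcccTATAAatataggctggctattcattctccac
Promoter windows were found for 12669 of 16112 protein-coding genes tested. TATAA on either strand was present in 17.2% of them, in 17.8% of the 979 windows of genes higher in the colon without overlap and in 21.0% of the 667 of genes lower without overlap.

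Goblet and deep crypt secretory genes were higher in colonic GFP-high cells. Of 23 goblet cell genes 19 were higher and 1 lower, 15 of the higher ones without overlap (list median 2.35), and their summed level was 2506 to 4869.9 CPM in the small intestine and 14620.5 to 34683 CPM in the colon. Muc2, the gel-forming mucin, had 330.1, 674 and 1753 CPM in the small intestine and 9804, 13702 and 26473 CPM in the colon (log2 4.35 ± 0.20, adjusted p = 8.9e-25). It rose along the small intestine, from 443 ± 82.7 CPM in the proximal to 1491 ± 243 CPM in the distal part. Agr2, the disulfide isomerase needed to fold mucin, had 94.2, 147 and 322 and 1286, 1648 and 1976 CPM (log2 3.15 ± 0.14, adjusted p = 1.1e-25).

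The regulators of the lineage moved with its products. Atoh1, which commits cells to the secretory fate, stood at 11.6, 19.7 and 39.7 CPM in the small intestine and 46.3, 118 and 143 CPM in the colon (log2 2.35 ± 0.15, adjusted p = 1.6e-19). Spdef (log2 2.95 ± 0.19, adjusted p = 9.1e-19) and the secretory-pathway factor Creb3l1 (log2 3.83 ± 0.15, adjusted p = 5.6e-28) were higher without overlap, and so was the protease gene Klk1 (log2 4.66 ± 0.18, adjusted p = 3.9e-28). Some goblet products did not follow. Fcgbp, an IgG Fc-binding mucus protein, differed by 0.00 ± 0.22 (adjusted p = 1), Tff3, the trefoil peptide, was lower (log2 -0.71 ± 0.19, adjusted p = 0.0021), and Clca1 was higher with overlap (log2 2.29 ± 0.32, adjusted p = 3.2e-08).

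Among 12 deep crypt secretory genes 9 were higher and 2 lower (list median 2.17). Muc2, Agr2, Spink4 and Retnlb of this list are also in the goblet list, so the 2 counts are not separate. The lectin gene Reg4 had 44.9, 109 and 236 CPM in the small intestine and 569.8, 796 and 1507 CPM in the colon (log2 2.98 ± 0.24, adjusted p = 1.4e-15). Kit, the receptor that marks these cells, was higher (log2 2.09 ± 0.13, adjusted p = 3.0e-19) and overlapped by a narrow margin. The Notch ligand Dll1 was lower (log2 -0.85 ± 0.17, adjusted p = 2.9e-05). Retnlb, a secreted resistin-like protein, was 7.07 ± 0.56 higher (adjusted p = 1.2e-15). Nxpe4, which is in the goblet list and not in this one, was 8.95 ± 0.36 higher (adjusted p = 1.6e-27), at 4.71 CPM in the proximal and 154 CPM in the distal colon. The promoter windows of Olfm4 (chr14:80000052-80000301 on the plus strand) and Muc2 (chr7:141690090-141690339 on the plus strand) are given because these genes, of the crypt base and the goblet lists, were without overlap between the organs in opposite directions, with TATAA in capitals.
Olfm4: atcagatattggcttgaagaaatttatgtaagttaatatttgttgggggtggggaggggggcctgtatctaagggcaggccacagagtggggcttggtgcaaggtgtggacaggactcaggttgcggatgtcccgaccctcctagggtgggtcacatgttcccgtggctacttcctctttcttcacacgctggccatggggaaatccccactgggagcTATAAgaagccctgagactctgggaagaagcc
Muc2: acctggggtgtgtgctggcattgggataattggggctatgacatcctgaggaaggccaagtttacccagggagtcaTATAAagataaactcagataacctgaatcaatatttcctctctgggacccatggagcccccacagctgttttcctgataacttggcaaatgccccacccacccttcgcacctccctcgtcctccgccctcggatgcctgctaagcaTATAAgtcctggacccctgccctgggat
TATAA occurs once in the window of Olfm4 and 2 times in that of Muc2, and the last copy starts 32 bases before the start of Olfm4 and 28 bases before that of Muc2.

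**Figure D3:**
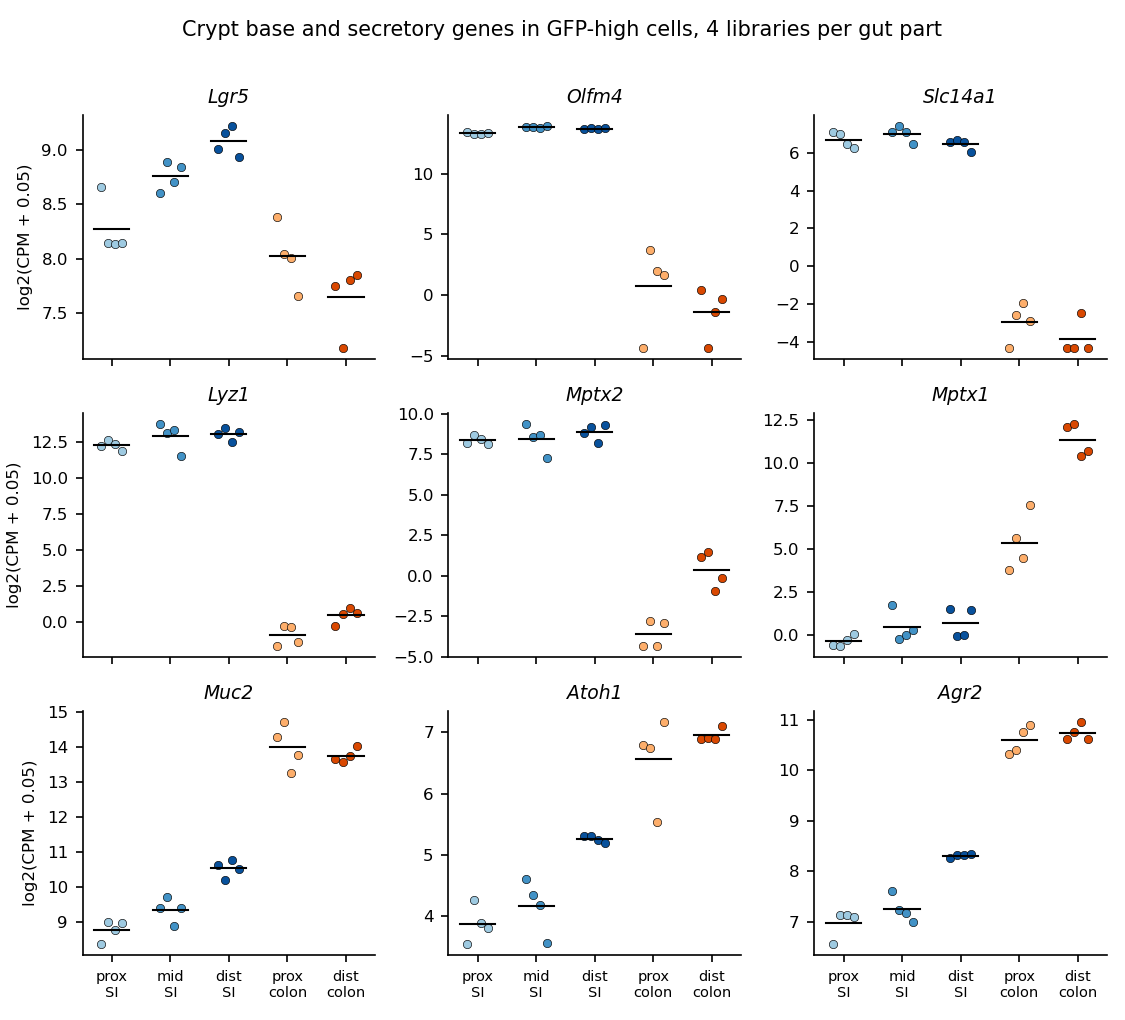
Each point is 1 GFP-high library, with its level on a log2 scale of CPM plus 0.05 on the vertical axis and the 5 gut parts on the horizontal axis (SI, small intestine), for stem cell, Paneth and goblet genes. Bars are means of the log values over 4 libraries. Olfm4, Lyz1 and Mptx2 lie far lower in all 8 colonic libraries, Mptx1 and Muc2 lie higher, and Lgr5 overlaps.

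Genes that attach sugars to mucins and surface proteins included several found almost solely in the colon. Of 27 glycan transferases 18 were higher, 13 of them without overlap, and 7 lower (list median 1.66). Fut9, a fucosyltransferase that makes Lewis x, had no count in the small intestine and 17.5 ± 5.29 CPM in the proximal and 187 ± 19.1 CPM in the distal colon, at least 1279-fold more than the floor. B3galt5, a galactosyltransferase, had 0.963, 1.79 and 5.31 CPM in the small intestine and 232, 529.5 and 695 CPM in the colon (log2 7.66 ± 0.37, adjusted p = 2.7e-24). B3galt2 and Abo, the blood group transferase gene, were at or under 0.0571 CPM in every small intestinal library and reached medians of 33.2 and 16.5 CPM in the colon.

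The fucosyltransferase Fut2 rose along the small intestine to a higher level in both parts of the colon, which overlapped, with part means of 0.8496, 7.37, 38.4, 259 and 251 CPM (log2 5.36 ± 0.39, adjusted p = 2.8e-17). Sialylation genes were higher without overlap, St6gal1 by 5.59 ± 0.23 and St6galnac6 by 7.23 ± 0.30, as was Cmah, the enzyme that makes the sialic acid Neu5Gc, at 0, 0.0608 and 0.599 and 46.4, 92.05 and 141 CPM. B3gnt6, which makes core 3 O-glycans of colonic mucin, was higher by 6.38 ± 0.32, B3gnt7 by 4.74 ± 0.21 and the sulfotransferase Chst4 by 4.297 ± 0.12. Lower members included Gcnt4 (log2 -2.09 ± 0.16, adjusted p = 2.5e-16) and B4galnt1 (log2 -1.28 ± 0.12, adjusted p = 9.2e-13).

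Other genes with the widest gaps in favour of the colon came from no single list. Ccn3, a secreted matricellular protein, was at or under 0.0851 CPM in the small intestine and at 143, 288 and 479 CPM in the colon (adjusted p = 3.0e-29). Pcdh17, a protocadherin, had 0, 0.0304 and 0.409 and 52.9, 127 and 220.3 CPM, and lactoperoxidase, Lpo, 0, 0 and 0.114 and 27.3, 34.1 and 57.8 CPM. Mostly distal in the colon were the transglutaminase Tgm3 (4.35 ± 4.32 CPM in the proximal and 147 ± 134 CPM in the distal part), Itih2 (1.18 ± 0.421 and 39.5 ± 4.36 CPM) and the receptor Ror1 (4.6 ± 1.05 and 19.1 ± 1.71 CPM). Cyp2d34 was at 0, 0 and 0.112 CPM in the small intestine and 4.84, 8.501 and 38.9 CPM in the colon.

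Genes of nutrient absorption were detected in small intestinal GFP-high cells and were lower in those of the colon. Of 16 brush border hydrolases 15 were lower and none was higher (list median -4.33), of 22 lipid absorption genes 20 were lower and 1 higher (median -4.79), and of 21 nutrient and bile acid transporters 16 were lower and 3 higher. Mttp, which loads lipid onto apolipoprotein B, had 90.4, 311 and 501 CPM in the small intestine and 5.58, 6.06 and 8.09 CPM in the colon (log2 -5.36 ± 0.20, adjusted p = 1.3e-28). Sucrase-isomaltase, Sis (log2 -7.81 ± 0.36, adjusted p = 8.6e-25), lactase, Lct (log2 -9.97 ± 0.58, adjusted p = 7.9e-21), and aminopeptidase N, Anpep (log2 -5.05 ± 0.28, adjusted p = 1.1e-21), were lower without overlap, as were Apoa1 (log2 -9.503 ± 0.67, adjusted p = 1.0e-17) and Apob (log2 -3.89 ± 0.24, adjusted p = 1.2e-19).

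Fabp1, the liver-type fatty acid-binding protein, fell along the small intestine, from 197 CPM in the proximal to 8.95 CPM in the distal part, and had at most 0.841 CPM in the colon. The glucose carrier Slc5a1 differed little (log2 -0.60 ± 0.17, adjusted p = 0.0034), and the anion exchanger Slc26a6 strongly (log2 -4.07 ± 0.26, adjusted p = 2.4e-19). Of the 3 transporters higher in the colon, the amino acid carrier Slc6a14 had 0.119, 1.47 and 9.39 and 76.4, 131 and 375 CPM (log2 7.02 ± 0.38, adjusted p = 6.5e-22).

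Genes of the pathway from glutamine to citrulline were mostly lower in the colon. Of 14 urea cycle and arginine genes 9 were lower, 8 of them without overlap, and 2 higher (list median -1.45). Cps1, carbamoyl-phosphate synthetase, had 4671, 5531 and 6568 CPM in the small intestine and 80.7, 187 and 537 CPM in the colon (log2 -4.67 ± 0.17, adjusted p = 7.5e-29), where the proximal part was higher (395 ± 126 against 114 ± 27.01 CPM). Its activator synthase Nags (log2 -4.23 ± 0.20, adjusted p = 8.3e-25), Otc (log2 -2.36 ± 0.11, adjusted p = 3.1e-25), Oat (log2 -2.404 ± 0.12, adjusted p = 4.9e-24), Aldh18a1 (log2 -1.78 ± 0.09, adjusted p = 1.7e-22) and the ornithine carrier Slc25a15 (log2 -1.94 ± 0.11, adjusted p = 3.7e-21) were lower without overlap. Ass1, which uses citrulline, was higher (log2 0.66 ± 0.12, adjusted p = 5.6e-06).

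Genes of colonic salt and acid-base transport were higher in colonic GFP-high cells. Of 26 such genes 16 were higher and 4 lower (list median 0.65), and of 25 surface colonocyte genes 14 were higher and 3 lower. Carbonic anhydrase Car2 had 1.105, 5.84 and 12.7 CPM in the small intestine and 344, 535 and 676 CPM in the colon (log2 6.63 ± 0.27, adjusted p = 1.9e-27). Car1 had no count in 10 of the 12 small intestinal libraries, 0.132 and 9.40 CPM in distal small intestine libraries 3 and 4, and 37.1, 801 and 3825 CPM in the colon, where the proximal part had 2210.3 ± 1126 and the distal part 80.8 ± 69.8 CPM.

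Slc5a8, which carries short-chain fatty acids, had 0.164, 12.5 and 59.2 CPM in the small intestine and 73.2, 133 and 335 CPM in the colon (log2 4.78 ± 0.29, adjusted p = 4.8e-20), and rose from 0.433 CPM in the proximal to 35.3 CPM in the distal part. Of the epithelial sodium channel, Scnn1a was 2.62 ± 0.14 higher (adjusted p = 1.0e-22), and Scnn1b was at or under 0.0817 CPM in the small intestine and at 1.09, 4.35 and 14.8 CPM in the colon. Hsd11b2, which protects the mineralocorticoid receptor from glucocorticoids, was 4.11 ± 0.15 higher (adjusted p = 7.8e-29). The chloride channel Ano1 was 5.399 ± 0.20 higher (adjusted p = 4.0e-29), the bicarbonate channel Best2 had 0, 0 and 0.114 and 1.34, 20.7 and 74.7 CPM, and the claudin Cldn8 was 4.07 ± 0.22 higher (adjusted p = 4.1e-22).

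Metabolic genes of other kinds were mixed. Cholesterol synthesis stood out for its sign, with 17 of 21 genes higher and none lower (list median 0.77), among them Hmgcs1 (log2 0.998 ± 0.12, adjusted p = 5.2e-10), Msmo1 (log2 1.29 ± 0.13, adjusted p = 1.6e-12) and Lss (log2 1.04 ± 0.11, adjusted p = 4.7e-12). Cytochrome P450 genes were split, with 12 of 30 higher and 11 lower. Cyp2c55 was higher (log2 6.69 ± 0.69, adjusted p = 6.6e-12) and mostly proximal in the colon (538 ± 239.5 against 47.4 ± 41.5 CPM). Pparg, the fatty acid-sensing receptor, was higher without overlap (log2 3.13 ± 0.13, adjusted p = 5.3e-27).

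Antigen presentation genes were lower in the colon. Of 11 MHC class II genes 9 were lower, 7 without overlap, and none was higher (list median -4.33, or -4.11 with sparse genes at their ratio or bound). The invariant chain gene Cd74 had 129, 967 and 2009 CPM in the small intestine and 4.82, 9.27 and 35.1 CPM in the colon (log2 -6.07 ± 0.50, adjusted p = 3.4e-15), and rose along the small intestine from 388 ± 216 to 1642 ± 363 CPM. Without distal colon library 4 its difference was -6.66. The class II transactivator Ciita (log2 -4.73 ± 0.39, adjusted p = 3.9e-15), H2-Aa (log2 -6.101 ± 0.62, adjusted p = 4.1e-12; -6.87 without distal colon library 4) and H2-Ab1 (log2 -5.92 ± 0.43, adjusted p = 4.8e-17) were lower too. Leukocyte markers moved the same way, since 19 of 25 were lower, at summed levels of 30.7 to 63.3 CPM in the small intestine and 9.65 to 25.5 CPM in the colon. These sums include Lyz2, which is also in the Paneth cell list. Lyz2 had 4.68 to 21.8 CPM in the small intestine and 0 to 1.04 CPM in the colon. No marker of the leukocyte list was at 0 in all 20 libraries, and the part of leukocytes in the result was not tested.

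Defence genes were split, with 9 of 25 higher and 12 lower. The list's median was -1.32 as fitted and 0.04 with sparse genes at their ratio or bound, so its sign depends on them. The lectins Reg3b (log2 -3.98 ± 0.61, adjusted p = 3.3e-07) and Reg3g (log2 -4.401 ± 0.49, adjusted p = 6.7e-11), and Nos2, the inducible nitric oxide synthase (log2 -5.19 ± 0.69, adjusted p = 8.7e-09), were lower with overlap. Single libraries weighed on 2 of them: the difference of Reg3b was -4.82 without distal colon library 3, and that of Nos2 -5.86 without proximal colon library 3. Tlr4, the receptor for bacterial lipopolysaccharide, had 0, 0.0312 and 2.23 CPM in the small intestine and 14.1, 17.1 and 20.4 CPM in the colon.

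Genes of tuft cells, the chemosensory epithelial cells, were lower in colonic GFP-high cells, in 19 of 25 cases with 2 higher (list median -1.06), and 17 without the libraries numbered 1. Trpm5, the taste channel, was lower (log2 -1.08 ± 0.18, adjusted p = 1.3e-06), and so was Dclk1 (log2 -0.62 ± 0.19, adjusted p = 0.0057), which did not pass without the libraries numbered 1 (adjusted p = 0.081). Hpgds, a prostaglandin D synthase, was higher (log2 1.85 ± 0.22, adjusted p = 3.2e-10). Enteroendocrine lineage genes were mostly not called, with 1 of 22 higher and 4 lower. Among 13 hormone genes 3 were higher and 6 lower. Gip, the incretin of the upper gut, had 0, 6.52 and 18.2 CPM in the small intestine and 0, 0 and 0.05096 CPM in the colon, and Insl5, the hormone of colonic L cells, 0, 0 and 0.0662 and 0.363, 9.34 and 12.8 CPM. Gcg, which encodes GLP-1, was at 4.51, 15.4 and 51.7 and 11.2, 19.3 and 58.5 CPM and close to the threshold (0.71 ± 0.30, adjusted p = 0.051, and adjusted p = 0.031 with a replicate block).

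Nox1, the catalytic subunit of an epithelial NADPH oxidase, was higher in colonic GFP-high cells and graded along the gut. It had 0.532, 32.2 and 94.1 CPM in the small intestine and 98.5, 202 and 355 CPM in the colon (log2 3.01 ± 0.33, adjusted p = 6.8e-11), without overlap. Part means from proximal small intestine to distal colon were 5.01 ± 4.51, 35.8 ± 19.98, 83.5 ± 14.5, 133 ± 32.3 and 296 ± 55.7 CPM (SD, n = 4). Its organiser gene Noxo1 was also higher (log2 0.98 ± 0.14, adjusted p = 1.2e-07). Duox2, a dual oxidase, was higher by a small step (log2 0.53 ± 0.20, adjusted p = 0.024), a call that was lost without the libraries numbered 1 (adjusted p = 0.12), without distal colon library 4 (adjusted p = 0.056) or without middle small intestine library 3 (adjusted p = 0.050). Its part means were 23.4, 171 and 316 CPM in the small intestine and 120.3 and 204 CPM in the colon. The distal small intestine thus lay above both parts of the colon on average, and the mean of the part means in CPM, 169.9 against 162, was slightly lower in the colon, unlike the fitted difference, which averages the parts on the log scale. Of 12 oxidase genes and partners 7 were higher and 1 lower.

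Npy1r, a receptor for neuropeptide Y, was almost confined to the distal colon among these 5 parts. It was at or under 0.109 CPM in all small intestinal libraries, at 4.62 ± 2.39 CPM in the proximal colon and at 72.3 ± 14.4 CPM in the distal colon (adjusted p = 1.7e-22 for the organ contrast). No colonic library overlapped the small intestinal range, in which 20 counts were found over 12 libraries.

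Genes induced by tissue dissociation were higher in the colon in 13 of 16 cases, with 1 lower (list median 0.98, or 1.22 with sparse genes at their ratio or bound), and 10 higher without the libraries numbered 1. The heat shock genes Hspa1b (0.454, 1.35 and 2.06 CPM in the small intestine and 14.2, 34.7 and 53.1 CPM in the colon, log2 4.81 ± 0.33, adjusted p = 6.1e-18) and Hspa1a (log2 6.04 ± 0.55, adjusted p = 1.7e-13) did not overlap between organs, and Fos, an immediate early gene, did (log2 2.09 ± 0.37, adjusted p = 4.5e-06). Summed levels of the list overlapped, at 1199 to 1655 CPM in the small intestine and 995 to 2606 CPM in the colon, and Hsp90aa1 was lower (log2 -0.54 ± 0.19, adjusted p = 0.016). Colon and small intestine were sorted to different minimum cell numbers, and the part of handling in the organ difference was not tested.

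**Figure D4:**
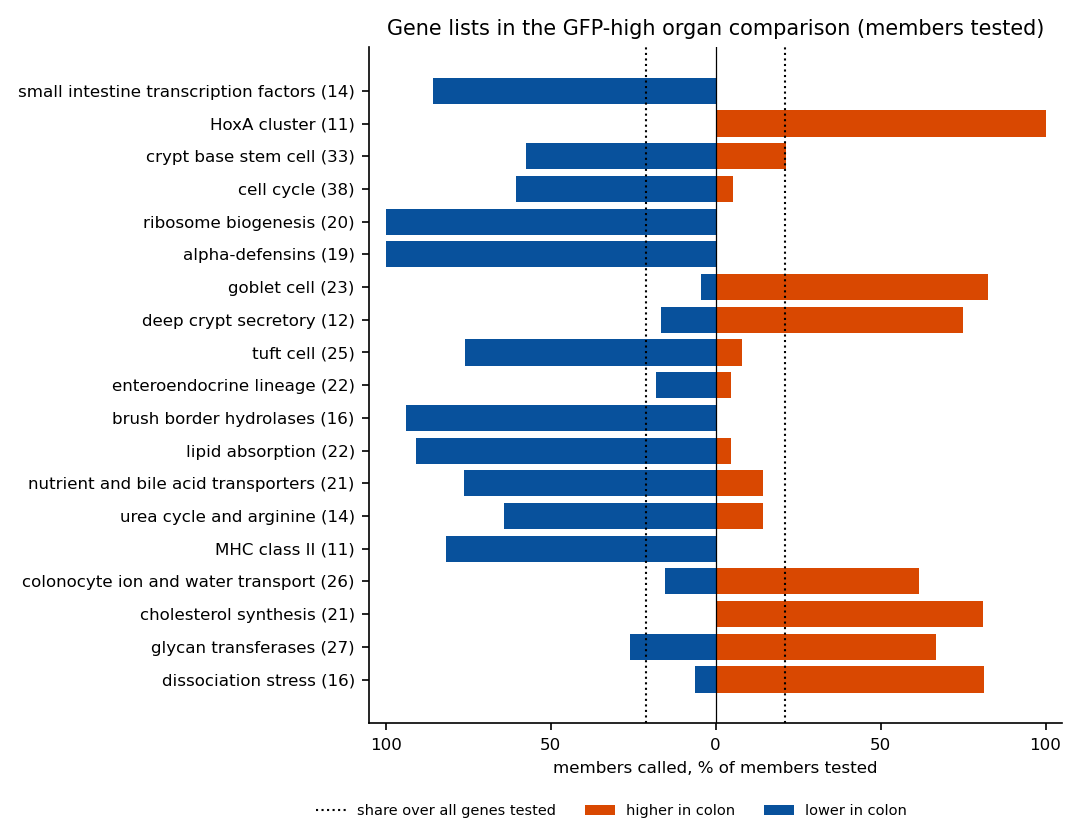
For each gene list, with the number of members tested in brackets, bars give the percentage of members called higher in the colon (right, orange) and lower (left, blue) in GFP-high cells, and dotted lines mark the shares over all genes tested (20.9% and 21.3%). All 19 listed alpha-defensins and all 20 ribosome biogenesis genes are on the lower side. On the higher side are 19 of 23 goblet cell genes and 17 of 21 cholesterol synthesis genes.

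The organ difference was also measured in GFP-negative cells, in which 11797 of 23360 genes (50.5%) were called, 6554 (28.1%) higher and 5243 (22.4%) lower in the colon. In this fraction the 25 leukocyte markers summed to 571 to 4344 CPM in the small intestine and 159 to 1705 CPM in the colon, above the 9.65 to 63.3 CPM of GFP-high cells, and 21 of them were lower in the colon. The part of leukocytes in the GFP-negative and interaction values was not tested. Of the genes higher in colonic GFP-high cells 66.8% were also higher in GFP-negative cells, 25.7% were not called there and 7.4% were lower. Of those lower in GFP-high cells 50.7% were lower, 38.1% not called and 11.2% higher. The shared genes were 49.7% of those higher and 48% of those lower in GFP-negative cells. The difference between the organ differences was tested as an interaction and called for 7515 genes (32.2%), 3381 (14.5%) with a higher and 4134 (17.7%) with a lower value in GFP-high cells. Both splits depend on the scaling: with library size alone, 70.7% in place of 55.6% of the GFP-negative calls were higher in the colon and 2607 of 8240 in place of 3381 of 7515 interaction calls were higher, with medians over all genes of 0.27 and -0.23. GFP-negative values come from other libraries than those described above, but the sort splits 1 suspension, so the fractions of a part are not independent of each other. The interaction test did not model this pairing of fractions, and its p-values treat all libraries as independent.

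Organ differences of patterning factors were partly shared by the fractions. Of the 14 small intestinal factors 4 had a higher interaction value and none a lower one, of the 9 colonic factors 2 a higher and 3 a lower one, and of 13 general gut factors 1 a higher and 7 a lower one. Gata4 differed by -8.74 in the GFP-high and -8.32 in the GFP-negative fraction, Gata5 by -7.58 and -7.21, and Foxd2 by 8.44 and 8.73. The interaction did not pass for these 3, with estimates between -0.42 and -0.30 and adjusted p from 0.44 to 0.81.

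Crypt base genes mostly had lower interaction values. Of the 33 crypt base genes 23 were higher and 6 lower in colonic GFP-negative cells, and the interaction was lower in GFP-high cells for 29. Lgr5 was 1.61 ± 0.17 higher in the colon among GFP-negative cells (interaction -2.47, adjusted p = 1.3e-11), and Sox9 2.78 ± 0.14 higher (interaction -2.61, adjusted p = 1.3e-15). Tuft cell genes followed the same pattern, with 18 of 25 higher in colonic GFP-negative cells and 20 with a lower interaction, and of 22 enteroendocrine lineage genes 2 had a higher and 10 a lower one. For ribosome biogenesis 19 of 20 had a lower interaction.

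Goblet cell genes and brush border hydrolases had mostly higher interaction values. In the goblet list 17 of 23 genes had a higher interaction, and Muc2 differed by 4.35 in the GFP-high and 1.5 in the GFP-negative fraction (interaction adjusted p = 3.9e-12). All 15 brush border hydrolases called in the interaction had a less negative organ difference in GFP-high cells, as did Mttp (-5.36 against -9.24, adjusted p = 5.0e-19) and Cps1 (-4.67 against -6.098, adjusted p = 6.0e-08). Of the 19 Paneth cell genes 3 had a higher and 15 a lower interaction. Lyz1 had the wider gap in GFP-high cells (-13.09 against -6.81, adjusted p = 6.4e-17), and so did Slc14a1 (-10.81 against -1.15, adjusted p = 5.1e-18). For Nox1 the interaction did not pass (3.01 against 3.92, adjusted p = 0.15).

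**Figure D5:**
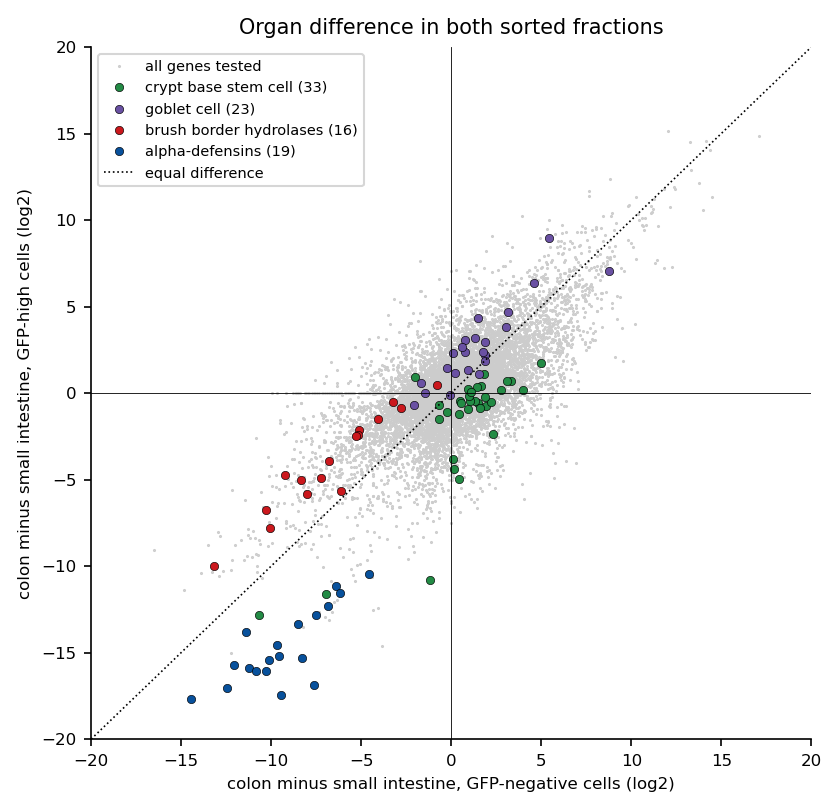
Each point is a gene, with its fitted log2 organ difference (colon minus small intestine) in GFP-negative cells on the horizontal axis and in GFP-high cells on the vertical axis, for all 23360 genes tested (grey) and 4 lists (coloured, members tested in brackets), and the dotted diagonal marks equal differences. Goblet cell genes and brush border hydrolases lie mostly above the diagonal and crypt base genes below it, and the fitted values of alpha-defensins, with few or no counts in the colon, depend on the prior count of the model.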

How the data were processed

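PolyA RNA of sorted epithelial cells was sequenced, and the deposited values used are the authors' whole-number counts per gene and library, of 55357 genes in 60 libraries. STAR, featureCounts of Subread, edgeR and the mm10 build are named per the submitters' processing notes, without versions. The library kit, its strandedness, the treatment of reads that fit several genes and the annotation release are not given in the sources used here. Overlapping genes on opposite strands therefore cannot be told apart.

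Counts from 1 to 20 were even in 76.6% of 361741 cases, and counts above 100 in 54.3%, so the mates of a read pair seem to have been counted separately. A count of 6 per library was therefore taken as the floor for a gene without counts, and genes with 6 or fewer counts in their smallest group are described by levels. Both floors and counts cover counting error only.

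The 23360 genes that passed filterByExpr with the 15 part-and-fraction groups (99.97% to 99.99% of counts) were fitted in 1 model over all 60 libraries with edgeR 4.0.16 in R 4.3.3 (TMM scaling, quasi-likelihood F-test, 45 residual degrees of freedom), and the organ contrast was the mean of the 2 colonic part means minus the mean of the 3 small intestinal ones. P-values were adjusted over all genes by Benjamini-Hochberg, with calls below 0.05. The fit was tested on simulated data. Standard errors were derived from the difference and its F statistic.

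Genes named are up to 20 protein-coding genes per direction with the largest fitted difference among called genes at 10 CPM or more without overlap, the genes Lgr5, Nox1 and Npy1r, and members of the gene lists, by size of p for lists over 14 members. The comparison, the 48 lists and their members were chosen with earlier results of these data known, and 1 gene of the colonic factor list is not reported here and left out of its counts.

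A deposited batch number equals the replicate number in 60 of 60 libraries, so equal numbers were read as pairing libraries by batch. Over 8000 genes, deviations from the part means correlated on average at 0.202, -0.002, 0.006 and 0.364 between small intestinal and colonic GFP-high libraries numbered 1 to 4 (6 pairs each), and at -0.048 between those with different numbers.

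Alternatives were other scalings (DESeq2 1.42.0 size factors, library size alone), no filter, the DESeq2 Wald test, edgeR's newer quasi-likelihood form, a replicate block, only the groups compared, an added fold threshold, a fit without defensin and Paneth genes, and leaving out libraries. Promoter windows are RefSeq's for GRCm38.p6, matched by symbol and aligned with Biopython 1.88.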

Additional observations from a re-analysis of the deposited data

Results flagged for a closer look

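In 27 genes described by library, the 4 libraries of each part and the organ difference in both fractions were examined for values that stand apart. Of 121 groups of 4 libraries, 10 had a library whose gap to its nearest neighbour exceeded Dixon's critical share of the group's range at 95%, where chance alone gives about 1 in 20. In 4 of the 10, those of Hoxb9, Slc14a1 and Npy1r, only 1 library had any count, so that its gap fills the range by construction and the chance rate does not apply; the other 6 are near that rate.

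Lgr5 was 404.6 CPM in proximal small intestine library 1, against 280.2, 282.3 and 283.1 CPM in the other proximal libraries. The same library was lowest for Agr2 at 94.2 CPM, against 135.9 to 139.8 CPM. In middle small intestine library 1, Mptx1 was 3.32 CPM against 0.813 to 1.19 CPM, and Hoxb9 was 0.0567 CPM, with no count in the other middle libraries. In distal colon library 4, Cd74 was 35.1 CPM against 4.82 to 7.05 CPM, and Atoh1 was 137.6 CPM against 118.1 to 120.2 CPM. Car1 was 9.40 CPM in distal small intestine library 4 and at most 0.132 CPM in the other distal libraries. Slc14a1 was 0.131 CPM in distal colon library 3, where the others had no count. Npy1r was 0.0286 CPM in proximal small intestine library 2 and 0.0448 CPM in middle small intestine library 3, each the sole library of its part with a count.

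For 14 of the 27 genes the organ difference itself differed between GFP-high and GFP-negative cells in edgeR's interaction test. The log2 interaction, GFP-high minus GFP-negative, was negative for Lgr5 (-2.47), Slc14a1 (-9.66), Lyz1 (-6.29), Mptx2 (-5.09), Defa38 (-7.96, which depends on the prior count because the colon had almost no counts) and Cd74 (-1.998). The size for Slc14a1 is uncertain too, since its organ difference in GFP-high cells moved from -10.8 to -13.1 without distal colon library 3. The interaction was positive for Muc2 (2.85), Atoh1 (0.60), Agr2 (1.81), B3galt5 (2.81), Cps1 (1.42), Mttp (3.88), Slc5a8 (1.61) and Npy1r (4.58, which also depends on the prior count, since the 12 small intestinal GFP-high libraries held 20 counts).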

How the results depend on the processing

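With a log2 difference of at least 1 in addition, 4564 genes were called in GFP-high cells (2754 higher, 1810 lower), 6524 in GFP-negative cells (3828 and 2696) and 3376 in the interaction (1622 and 1754). The other values of these counts, 321 of 330, stayed within 1.5 times. Leaving out 1 library gave 9182 to 9764 genes in GFP-high cells (4555 to 4909 higher, 4502 to 4997 lower), 11385 to 11795 in GFP-negative cells (6296 to 6656 and 5053 to 5417) and 7144 to 7770 in the interaction (3216 to 3551 and 3842 to 4325). With the replicate block 10017 genes were called in GFP-high cells, 9683 of them also without it in the same direction, and among named genes the block changed only the calls of Ascl2 and Gcg. With DESeq2's Wald test it was 9851 genes. Of 4812 values of 161 named genes 4771 kept direction and side of the threshold, 26 no longer passed, 15 newly passed and none reversed. Most of the 26 came from the added fold threshold, which drops every gene with a log2 difference under 1 and cannot reverse a direction. Among the refits only Dclk1, Duox2 and Hsp90aa1 lost their calls. Hsp90aa1 no longer passed without the libraries numbered 1 (adjusted p = 0.090) or without proximal colon library 4 (adjusted p = 0.058), and Gcg passed in 13 alternatives. With the newer quasi-likelihood form 12 leukocyte markers in place of 19 and 3 HoxD genes in place of 5 were called, and 11 subunits of oxidative phosphorylation in place of 17 were lower with library size alone or no filter. The cause of these shifts was not tested. Genes with few counts on the low side have levels limited by depth.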

Other observations

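Among signalling lists besides Wnt, the Notch list gave shares of calls near those of all genes (20.9% higher, 21.3% lower). The BMP list and the EphB and ephrin-B list had larger shares of higher genes, with few members each. Of 16 Notch pathway genes 4 were higher and 3 lower in colonic GFP-high cells, of 15 BMP pathway genes 5 were higher and 3 lower, and of 7 EphB and ephrin-B genes 3 were higher and none lower. Among 9 DNA methylation genes 1 was higher and 4 were lower. The 22 genes of fatty acid oxidation and ketogenesis had 6 higher and 3 lower members. Of 11 iron and calcium absorption genes 3 were higher and 5 lower, and of 14 claudins 6 were higher and 3 lower. The 31 genes of retinoid and xenobiotic handling were split evenly, with 11 in each direction.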
